A study of Mus musculus with 12 samples.

Results

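Choroid plexus and cortical hem genes, 10 in all, were followed across newborn mouse forebrains of 4 genotypes: Ttr, Clic6, Sostdc1, Folr1, Kl, Cldn2, Aqp1, Lmx1a, Otx2 and Msx2. They were chosen by name as genes of these 2 neighbouring structures. Of the 10, 9 had an array probe set assigned to them alone, out of 19938 genes with such a probe set. Lmx1a had none in the annotation used and is not analysed here. RNA came from pups on postnatal day 0, with 3 biological replicates and 1 Affymetrix array for each. GB pups carried hGFAP-cre and the Ctnnb1(ex3)Fl/+ allele, which yields a stabilised beta-catenin after recombination and so switches on WNT targets. GS pups carried hGFAP-cre and SmoM2Fl/+, a constitutively active Smoothened that switches on sonic hedgehog signalling. GBS pups carried hGFAP-cre with both alleles, and their samples were labelled as tumors. Control pups carried Ctnnb1(ex3)Fl/+ and SmoM2Fl/+ with no Cre, so an effect of Cre itself cannot be told apart from that of an allele in any comparison with Control. The human GFAP promoter acts in radial glia and their descendants, so the alleles are recombined in part of the tissue only. The labels do not say how much choroid plexus each dissection held.

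The choroid plexus is a sheet of secretory epithelium in the brain ventricles that makes cerebrospinal fluid. In the forebrain it forms at the dorsal midline, next to the cortical hem, a signalling centre that releases WNT and BMP proteins and patterns the adjoining cortex and hippocampus. BMP signals favour the choroid plexus fate and WNT signals the hem fate, and OTX2, MSX2 and LMX1A are among the transcription factors of the dorsal midline. Transthyretin, from Ttr, is the best known secreted product of the mature epithelium.

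Levels are RMA values on a log2 scale, so a difference of 1 is a 2-fold change. Array medians lay between 6.52 and 6.69, and no value can be set against that of another gene, since each probe set responds in its own way. Differences were tested with limma over all 19938 genes, and a gene is said to rise or fall only at a Benjamini-Hochberg adjusted p under 0.05. Every adjusted p below is from that fit. The sexes were unevenly spread, as judged by Xist, which was high on 2 GB and 2 GS arrays and on no Control or GBS array. GB replicate 2, GS replicate 3 and Control replicate 3 deviate from their groups in a shared direction (r = 0.71 to 0.82 between their deviations). GBS replicate 1 deviates that way to a lesser degree (r = 0.41 to 0.50 with those 3). It is kept in the setting below that leaves out the 3. The dorsal forebrain genes Emx1, Emx2, Lhx2 and Pax6 were between 6.18 and 8.93 on the 12 arrays.

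In GBS tumors 2 of the 9 measured genes rose and 0 fell against Control. Clic6, a chloride channel family gene of choroid plexus and other secretory epithelia, was 5.2-fold higher, and Sostdc1, a secreted inhibitor of WNT and BMP signals, was 4.39-fold higher. Of all genes, 8.04% rose and 3.59% fell in this comparison. The other 7, Ttr among them, had differences of -1.53 to -0.16 on the log2 scale and did not pass the test. The 9 measured genes thus did not rise as a group: their median difference was -0.30, beside -0.14 over all genes. Most of them are choroid plexus genes, so they say little about the hem, for which further genes are given below. In bulk tissue fewer cells of a type and less RNA per cell cannot be told apart, nor can more cells and more RNA.

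Clic6 read 5.84, 5.87 and 6.15 in Control replicates 1 to 3, 6.21, 6.31 and 6.46 in GB, 5.73, 6.15 and 5.94 in GS, and 7.99, 9.08 and 7.93 in GBS. All 3 tumors lay above all 9 other arrays, and GBS replicate 2 stood above the other tumors. The rise against Control was 2.38 ± 0.25 on the log2 scale (SE of the fit, n = 3 per group; adjusted p = 0.000293). Against GS it was 2.39 (adjusted p = 0.00043) and against GB 2.01 (adjusted p = 0.00139). The GB arrays also lay above the Control arrays without overlap, as 2.89% of all genes did, but that difference, 0.37 (95% interval -0.19 to 0.93), did not pass the test. GS and Control overlapped, with a difference of -0.02 (95% interval -0.57 to 0.54). Clic6 exceeded the 40th percentile of the array on the 3 GBS arrays and GB replicate 3 only, so its level elsewhere is among the dimmer probe sets.

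Sostdc1 read 6.83, 6.79 and 7.06 in Control, 7.45, 7.05 and 7.51 in GB, 6.58, 6.75 and 6.53 in GS, and 8.47, 9.28 and 9.33 in GBS. The tumors again lay above all other arrays, and unlike Clic6 it was replicate 1, not replicate 2, that stood apart among them, on the low side. The rise was 2.14 ± 0.21 against Control (adjusted p = 0.000174), 2.41 against GS (adjusted p = 0.000103) and 1.69 against GB (adjusted p = 0.00122). GB and Control differed by 0.44 (95% interval -0.02 to 0.90) and their arrays overlapped. The 3 GS arrays lay below the 3 Control arrays, as they did for 10.3% of all genes, with a difference of -0.27 (95% interval -0.73 to 0.19) that did not pass the test (adjusted p = 0.665). The tumors stood above Control without overlap in both genes, as in 22.1% of all genes.

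**Figure D1:**
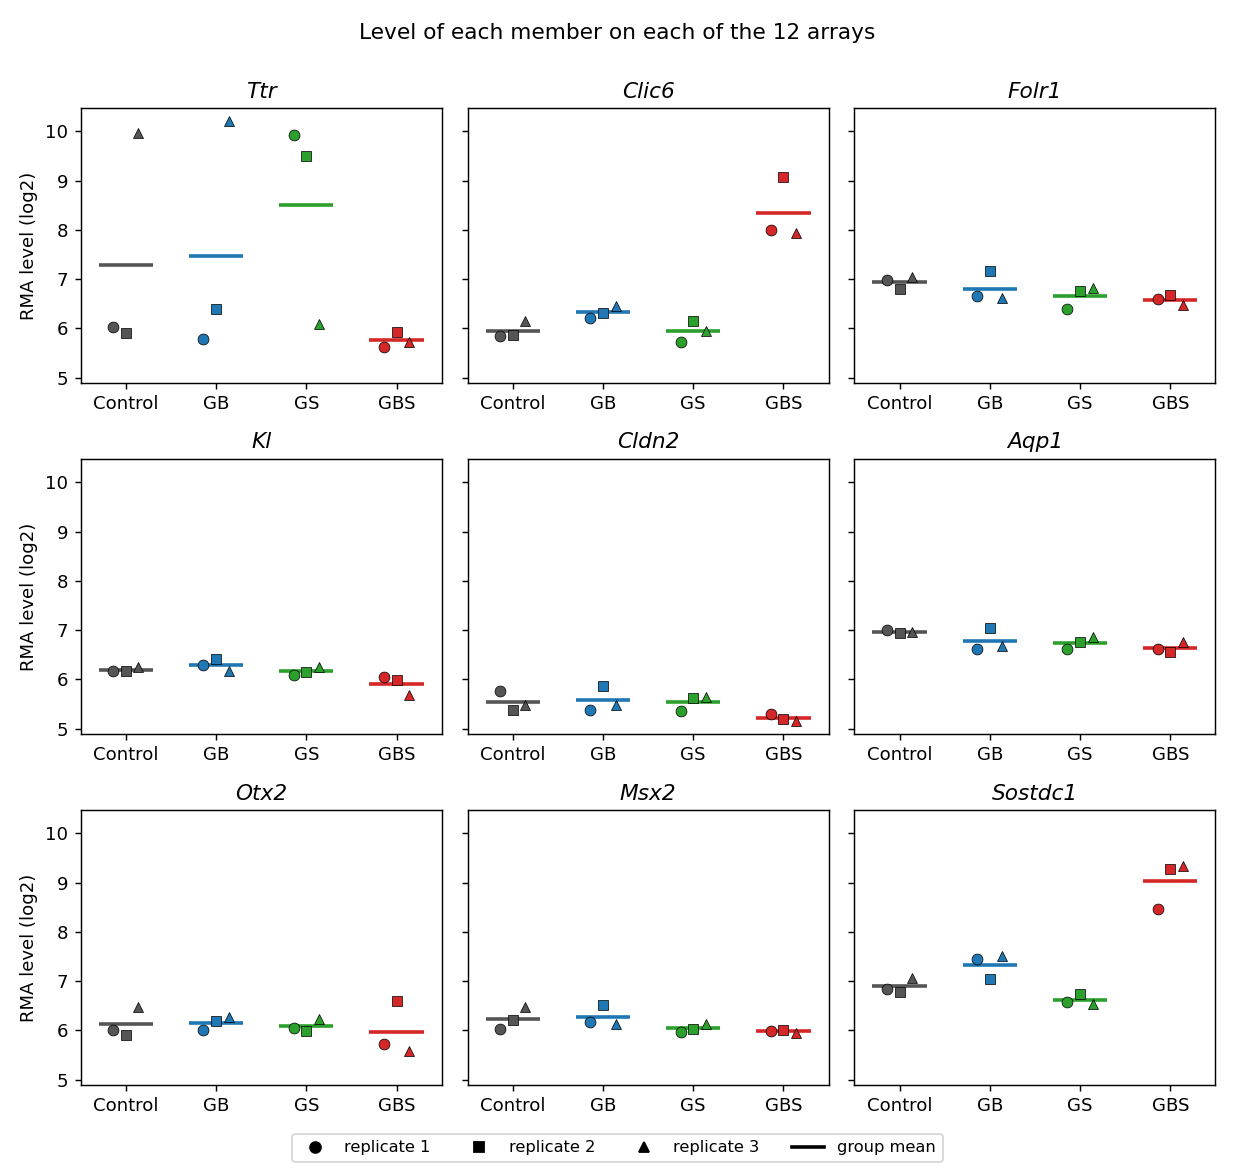
RMA level (log2, vertical axis) of the 9 measured genes on each array, by genotype (horizontal axis); symbols are the 3 replicates and bars the group means. Clic6 and Sostdc1 are high on the 3 GBS arrays, at 7.93 or more, and Ttr is at 9.49 or more on 4 arrays of 3 genotypes and at 6.39 or less on the other 8.

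Whether the beta-catenin allele acts differently with and without SmoM2 was tested as (GBS minus GS) minus (GB minus Control). For Sostdc1 the beta-catenin allele went with a difference of 2.41 on the SmoM2 background and 0.44 without it, and the gap between them, 1.97 ± 0.30, passed the test (adjusted p = 0.0278). It was the only one of the 9 genes to do so, with 0.231% of all genes called (0.226% with a positive and 0.00502% with a negative gap). That call ended without any of 9 single arrays: GBS replicates 2 and 3, all GS and all Control replicates, and GB replicate 1. The value ran from 1.81 to 2.25 over the 12 fits without 1 array. With sex, as judged by Xist, as a covariate the gap was 1.89 (adjusted p = 0.772), in a fit that called 0 genes of the whole table. Xist was high on GB and GS arrays only, so that fit separates sex from the gap poorly and does not decide between them. For Clic6 the gap was 2.02 ± 0.36 and missed the threshold (adjusted p = 0.056). It passed without GBS replicate 2, the tumor with the highest Clic6, where it was 1.65 (adjusted p = 0.00961), and in 4 other settings. Over all genes the fit without GBS replicate 2 called 26 positive and 2 negative gaps. The 4 other fits called 42 to 748 positive and 1 to 898 negative gaps.

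Ttr, the carrier of thyroxine and retinol-binding protein in cerebrospinal fluid, ranged over 4.58 log2 units on the 12 arrays, while its group means spanned 2.74. It read 6.03, 5.90 and 9.96 in Control, 5.79, 6.39 and 10.21 in GB, 9.92, 9.49 and 6.08 in GS, and 5.63, 5.93 and 5.72 in GBS. Each genotype without tumor thus held both high and low arrays, and no array lay between 6.39 and 9.49. The spread within Control, GB and GS was 2.31, 2.40 and 2.10 (SD, n = 3), against 0.154 in GBS. The 3 tumors were all low, and overlapped with Control and with GB but not with GS. None of the comparisons passed the test: GBS minus Control was -1.53 (95% interval -4.51 to 1.44; adjusted p = 0.376) and GBS minus GS was -2.74 (95% interval -5.71 to 0.24; adjusted p = 0.370). Both intervals include 0, so these arrays do not settle the direction.

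The Ttr comparisons turned on single arrays. Without Control replicate 3, the only high Control array, GBS minus Control was -0.20, and without Control replicate 2 it was -2.23. With the median level of olfactory and vomeronasal receptor genes on each array as a covariate, Ttr in GBS minus Control was -3.54 (adjusted p = 0.230). Leaving out GB replicate 2, GS replicate 3 and Control replicate 3 removes the only low GS and the only high Control array. GS was then higher than Control by 3.74 (adjusted p = 0.0367, 2 arrays against 2), and GBS minus GS was -3.94 (adjusted p = 0.0116, 3 arrays against 2). The gap (GBS minus GS) minus (GB minus Control) for Ttr was -5.98 and passed as well (adjusted p = 0.0453). Over all genes, 1341 were higher and 470 lower in GS against Control in that fit, 1156 and 1293 in GBS against GS, and 110 and 253 in the test of the gap. With array weights Ttr was also called lower in GBS than in GS, in a fit that called 1867 genes higher and 2064 lower there.

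**Figure D2:**
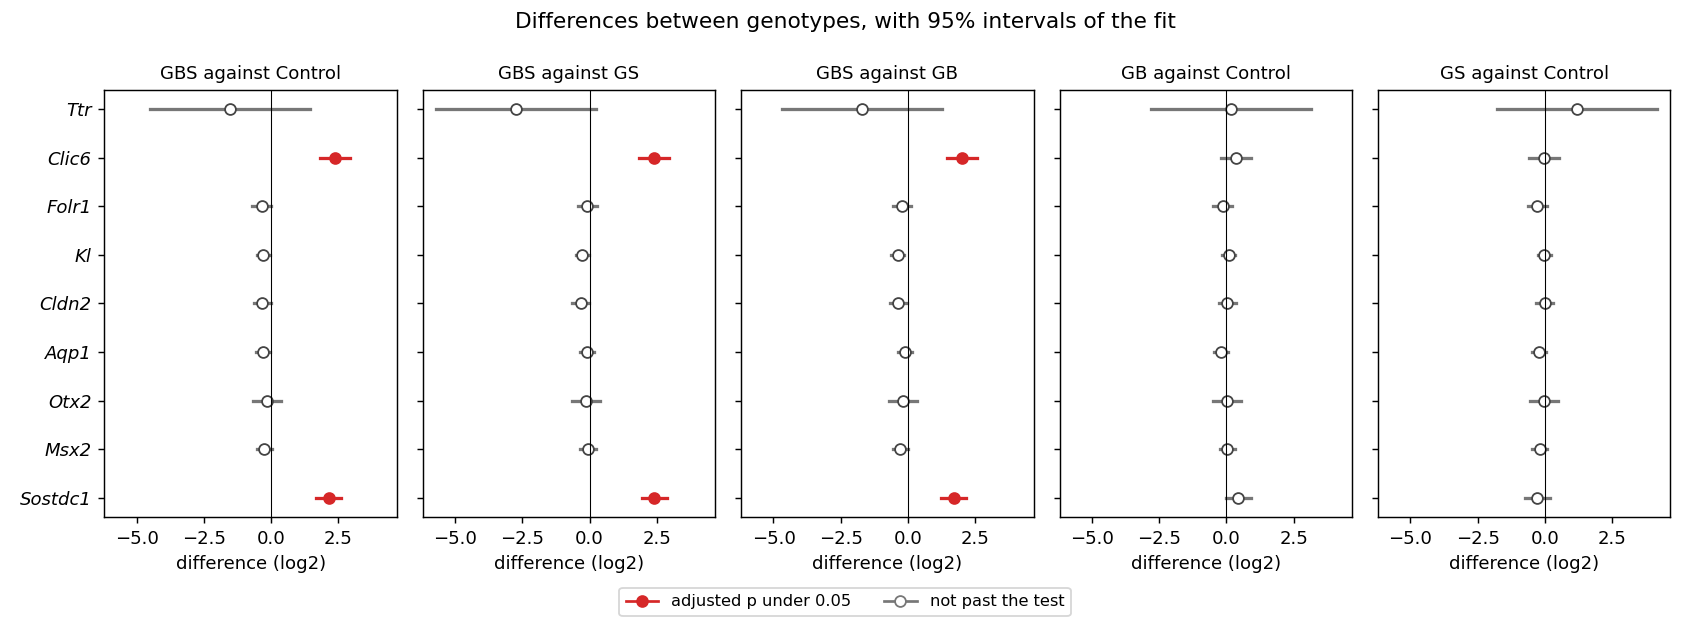
Difference between genotypes (log2, horizontal axis) for the 9 genes in 5 comparisons, with 95% intervals of the limma fit; filled points passed the test. Clic6 and Sostdc1 pass in the 3 comparisons of GBS, and the interval of Ttr spans more than 5 log2 units in each panel.

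The high Ttr arrays were Control replicate 3, GB replicate 3, and GS replicates 1 and 2, so they cut across genotype, and Xist was high on 2 of them and low on the other 2. Other genes of the epithelium had narrower ranges over the 12 arrays. Ecrg4, which encodes a secreted peptide precursor of the choroid plexus, ran from 6.19 to 7.03, and its 4 highest arrays were those with high Ttr: GS replicate 1 at 7.03, Control replicate 3 at 6.87, GB replicate 3 at 6.77 and GS replicate 2 at 6.69, the next being GB replicate 2 at 6.67. Kcnj13, a potassium channel of the apical membrane, ran from 7.03 to 7.99, and the same 4 arrays, at 7.87 to 7.99, were among its 5 highest, with GBS replicate 2 at 7.92. Kcne2, a potassium channel subunit, ran from 6.11 in GBS replicate 2 to 7.02 in Control replicate 3. Folr1, the folate receptor that carries folate into cerebrospinal fluid, ran from 6.40 in GS replicate 1 to 7.16 in GB replicate 2. Tcf7l2, a thalamic transcription factor gene, ran from 6.86 in Control replicate 1 to 8.37 in GS replicate 1. Ecrg4 and Kcnj13 were picked after their values were seen, from 17 further choroid plexus genes. The mean of these 17 was highest, at 6.66, on GB replicate 2, where Ttr was low. In GS it was 6.33 and 6.35 on replicates 1 and 2 and 6.44 on replicate 3, while in Control it was highest on replicate 3, at 6.57. The median of the olfactory and vomeronasal receptor genes was also highest on GB replicate 2, at 5.35. In GS that median was 4.88, 4.96 and 5.23 on replicates 1 to 3, and in Control it was highest on replicate 3, at 5.23. The mean of the 17 is thus no clear measure of choroid plexus. Whether the amount of choroid plexus differed between dissections was not tested.

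**Figure D3:**
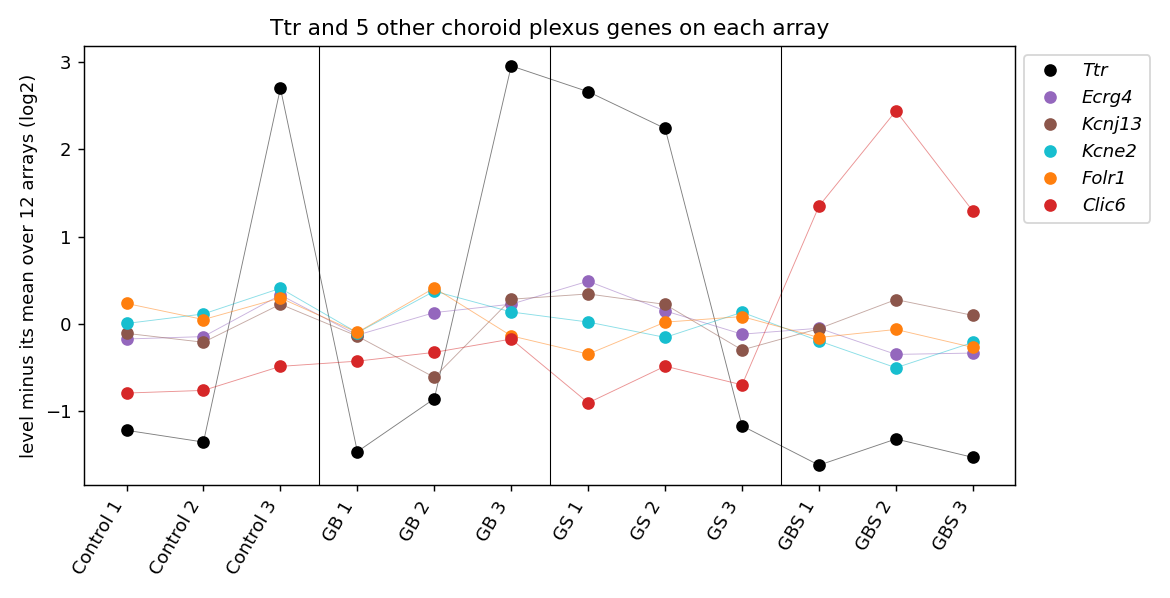
Level of Ttr and 5 other choroid plexus genes on each array, minus the gene's mean over the 12 arrays (log2, vertical axis); thin lines only join points of a gene. Ttr is high on Control replicate 3, GB replicate 3 and GS replicates 1 and 2, the ranges of the 5 other genes are narrower, and Clic6 is high on the 3 GBS arrays, where Ttr is low.

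The remaining choroid plexus members are proteins of transport and barrier function. Folr1 read 6.98, 6.79 and 7.04 in Control and 6.59, 6.68 and 6.47 in GBS. Aqp1, the water channel of the apical membrane, read 6.998, 6.95 and 6.96 in Control and 6.63, 6.55 and 6.76 in GBS. In both the tumors lay below Control without overlap, by 0.36 and 0.32 on average. Cldn2, a tight junction protein of leaky epithelia, read 5.77, 5.38 and 5.49 in Control and 5.29, 5.19 and 5.15 in GBS. Kl, the source of the anti-ageing protein Klotho, read 6.16, 6.18 and 6.25 in Control and 6.05, 5.98 and 5.67 in GBS. The difference was -0.33 for Cldn2 and -0.30 for Kl, again without overlap. None of these 4 passed the test (adjusted p = 0.0908 to 0.132). Cldn2 was above the 40th percentile on 0 of the 12 arrays and Kl on 2, so both were measured near the dim end.

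Such a shift was common. Tumor arrays lay wholly below Control arrays for 40.5% of all genes, and the 9 genes split into 5 below, 2 above and 2 that overlapped. Olfactory and vomeronasal receptor genes, which brain tissue hardly expresses, had array medians of 4.84 to 4.92 in GBS and 5.12 to 5.23 in Control. These ranges do not overlap, so a fit with that median as a covariate cannot tell a difference between genotypes from one between arrays. In that fit the GBS difference from Control was 2.33 for Clic6 (adjusted p = 0.00219) and 1.87 for Sostdc1 (adjusted p = 0.00157). It was 0.02 for Folr1, -0.05 for Cldn2, -0.07 for Aqp1 and -0.14 for Kl. Calls for these 4 genes also hung on GB replicate 2, which enters only the estimate of the spread. Without it Folr1, Kl, Cldn2 and Aqp1 all passed as lower (adjusted p = 0.0174 to 0.0411), while 4132 genes in all were lower, beside 716 with it. Folr1, Cldn2 and Aqp1 were also called lower with only the Control and GBS arrays in the fit (adjusted p = 0.0193 to 0.0386), while 4909 genes in all were lower. Leaving out GB replicate 2, GS replicate 3 and Control replicate 3 made Cldn2 and Aqp1 pass as well (adjusted p = 0.0364 and 0.0174), with 3900 genes lower in all.

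Of the transcription factors, Otx2, which the choroid plexus needs for its formation and upkeep, read 6.00, 5.90 and 6.48 in Control, 6.00, 6.20 and 6.27 in GB, 6.04, 5.98 and 6.24 in GS, and 5.71, 6.60 and 5.59 in GBS. The tumors thus held its highest and its lowest values, and the highest was in GBS replicate 2, as for Clic6. GBS minus Control was -0.16 (95% interval -0.68 to 0.36; adjusted p = 0.596), and -0.48 without GBS replicate 2 (0.03 without GBS replicate 3). Msx2, a homeobox target of BMP signals, read 6.03, 6.21 and 6.48 in Control and 6.00, 6.00 and 5.95 in GBS. The tumors lay just below Control, with a difference of -0.26 (95% interval -0.54 to 0.03; adjusted p = 0.169), which was -0.00072 with the receptor-gene median as a covariate.

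Against GS, 2 of the 9 genes rose and 0 fell in GBS, Clic6 and Sostdc1, with 3.52% of all genes called, 2.49% higher and 1.02% lower. The arrays did not overlap in 2 higher and 3 lower members (Ttr, Kl and Cldn2), beside 12.7% and 12.9% of all genes. Against GB the same 2 rose and 0 fell, with 8.83% of all genes called, 6.48% higher and 2.35% lower. The arrays did not overlap in 2 higher and 3 lower members (Kl, Cldn2 and Msx2), beside 18.3% and 27.7% of all genes. Kl came nearest among the others, at -0.39 against GB (adjusted p = 0.0503), and passed in 6 of 23 other settings. With only the groups compared in the fit, Clic6 and Sostdc1 just missed the threshold against GB (adjusted p = 0.0514 and 0.0525). The comparisons of GBS share their tumor arrays, so these values are not separate evidence.

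Each allele alone moved none of the genes past the test. In GS against Control limma called 0 of 9 genes, beside 0.0150% of all genes. At an unadjusted p under 0.05 there were 0, beside 1176 of all 19938 genes. Sostdc1 and Aqp1 were lower without overlap, and 0 members were higher (6.57% of all genes higher and 10.3% lower). In GB against Control limma called 0 of 9 and 0% of all genes. At an unadjusted p under 0.05 there were again 0, beside 217 of all 19938 genes. Clic6 was higher without overlap, and 0 members were lower (2.89% of all genes higher and 1.18% lower). GS against GB gave 0 of 9, with 0.010% of all genes called (0.00502% higher and 0.00502% lower). There 1 of the 9 had an unadjusted p under 0.05, as did 1506 of all 19938 genes. Clic6 and Sostdc1 were lower in GS than in GB without overlap and 0 members were higher, beside 5.45% and 3.60% of all genes. Leaving Ttr, Clic6 and Sostdc1 aside, differences from Control ran from -0.27 to -0.01 in GS and from -0.19 to 0.09 in GB. With array weights, whose estimate did not converge, Ttr was higher in GS than in Control by 2.79 (adjusted p = 0.0178) and than in GB by 2.85 (adjusted p = 0.0148), and Sostdc1 in GS minus GB was -0.73 (adjusted p = 0.00163). That fit called 4193 genes higher and 5888 lower of 19938 in GS against Control, and 3119 and 3443 in GS against GB.

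Further genes of both structures were counted in the same fit. Of 20 further choroid plexus genes 17 were measured, and 0 rose and 0 fell in GBS against Control in limma, with 8 at an unadjusted p under 0.05 (7248 of 19938 over all genes). Their median difference was -0.27 (-0.14 over all genes), and 16 of the 17 were below 0, as were 13349 of all 19938 genes. Kcne2 had a difference of -0.48 (adjusted p = 0.0604) and Ace, the angiotensin-converting enzyme, of -0.35 (adjusted p = 0.0695). Both passed as lower in, among others, the fit of only the groups compared and the one without GB replicate 2 (adjusted p = 0.0176 and 0.0170). Those 2 fits called 4909 and 4132 genes lower in all, beside 716 in the main fit. Over all settings the difference of Kcne2 ran from -0.57 to -0.21 (adjusted p up to 0.518). That of Ace ran from -0.40 to -0.18 (adjusted p up to 0.47). Kcnj13, at 0.14, was the only one above 0. Their mean level per array was 6.15 to 6.27 in GBS and 6.40 to 6.57 in Control. Clic6 and Sostdc1 were thus not joined by any of these 17 genes among the rises.

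Of 16 further hem and roof plate genes, all measured, 5 rose and 1 fell in GBS against Control, beside 8.04% and 3.59% of all genes. Their median difference was -0.18 (-0.14 over all genes). The arrays did not overlap in 5 higher and 6 lower genes of this list, beside 22.1% and 40.5% of all genes. Bmp4, a BMP ligand of the dorsal midline, read 6.80, 6.77 and 7.01 in Control and 8.14, 8.88 and 8.55 in GBS. It rose 3.17-fold (adjusted p = 0.000156). Wnt5a, a WNT ligand of the hem, read 6.01, 5.96 and 6.19 in Control and 7.28, 8.07 and 7.29 in GBS, and rose 2.83-fold (adjusted p = 0.000737). Both genes were higher on every tumor than on every other array, both also rose against GS and against GB, and both were highest in GBS replicate 2, like Clic6.

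Bmp7, a further BMP ligand, rose by 0.50 (adjusted p = 0.0374), and Rspo2, which amplifies WNT signals, fell by 0.50 (adjusted p = 0.0126). The call of Bmp7 ended without any of 7 single arrays, among them GBS replicates 2 and 3 and each Control replicate (adjusted p up to 0.184 over all settings). Rspo2 lost its call without GBS replicate 2 and likewise without Control replicate 3, with an adjusted p of at most 0.0668. The remaining rises were Id3, a BMP target gene (0.69, adjusted p = 0.0375), and Rspo3, a WNT amplifier (0.73, adjusted p = 0.0392). Wnt3a, Wnt2b, Wnt8b and Gdf7, ligand genes used to mark the hem and roof plate, had differences of -0.36, -0.23, -0.18 and -0.20 and did not pass. Of these 16 genes 3 rose and 1 fell against GS (2.49% and 1.02% of all genes), and 2 rose and 0 fell against GB (6.48% and 2.35%). In limma 0 changed in GB or GS against Control (0% and 0.0150% of all genes called). At an unadjusted p under 0.05 there were 1 and 0, beside 217 and 1176 of all 19938 genes.

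**Figure D4:**
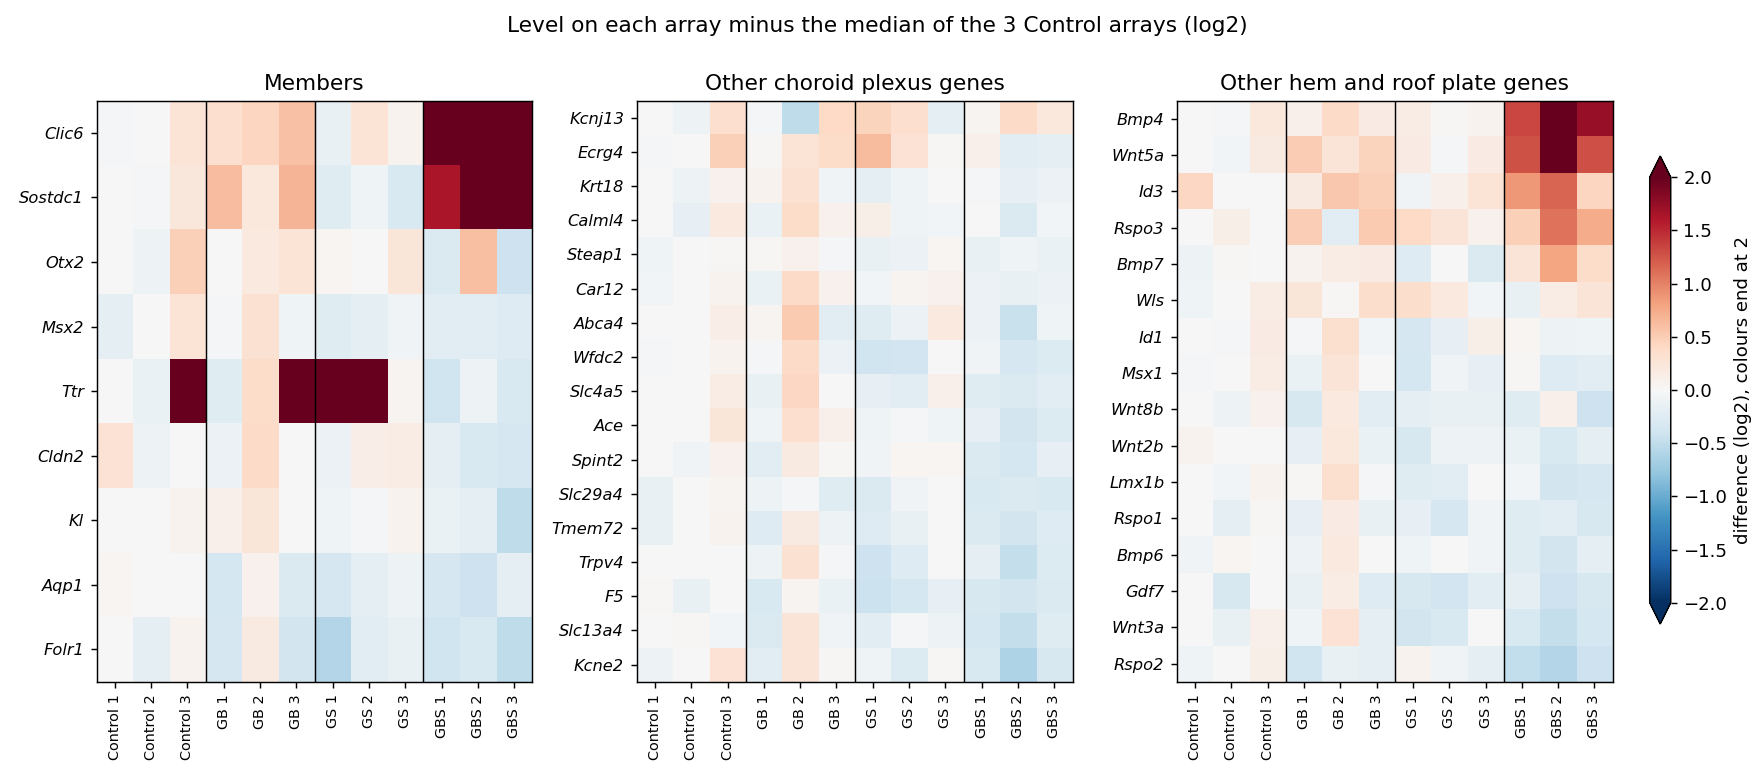
Level of each gene on each array minus the median of the 3 Control arrays (log2, colour), for the 9 measured genes, 17 further choroid plexus genes and 16 further hem and roof plate genes, with arrays grouped by genotype and genes sorted by their GBS mean. Clic6, Sostdc1, Bmp4 and Wnt5a are red on the 3 GBS arrays, while most choroid plexus genes are pale blue there.

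Several members are also active in other cells, so marker lists of those cells are given beside the 2 rises. Their part in the rises was not tested. For comparison, 8.04% of all genes rose and 3.59% fell in GBS against Control, and 7248 of 19938 had an unadjusted p under 0.05 in limma. Of 8 genes of ependyma and multiciliated cells 0 rose and 1 fell in the tumors (Gmnc, -0.44, adjusted p = 0.0201, a call that ended without GBS replicate 2 or any Control replicate), with a mean level of 6.24 to 6.47 in GBS and 6.55 to 6.71 in Control. Of 8 midbrain and floor plate genes, where Otx2 and Lmx1a also act, 0 rose and 1 fell (Th, -0.43, adjusted p = 0.0295, lost without GBS replicates 2 or 3 or any Control replicate), at 6.69 to 6.93 and 7.11 to 7.25. The calls of Gmnc and Th also ended with the receptor-gene median as a covariate and with a replicate block. Over all settings their adjusted p was at most 0.152 and 0.2345. In the retina, pigment epithelium and pineal list 0 of 5 measured genes were called (5.38 to 5.53 and 5.67 to 5.73), the largest differences being those of Aanat (-0.33) and Tyr (-0.29), with 1 of the 5 at an unadjusted p under 0.05.

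Of 10 meningeal and fibroblast genes 1 rose and 0 fell. Dcn, a matrix proteoglycan, rose 13.9-fold, or 3.79 on the log2 scale (adjusted p = 0.000318; 2.65 with the receptor-gene median as a covariate, adjusted p = 0.000279), and read 6.36, 7.46 and 6.75 in Control, 8.35, 7.35 and 8.85 in GB, 7.68, 7.62 and 6.43 in GS, and 10.65, 10.63 and 10.67 in GBS. The fibroblast collagen genes Col1a1, Col1a2 and Col3a1 differed by -0.19, -0.23 and -0.24 and were not called. The list mean was 7.02 to 7.27 in GBS and 6.78 to 7.05 in Control, so the ranges met. Of 4 thalamic genes 1 rose (Lhx9, also a gene of the dorsal forebrain, by 1.92, adjusted p = 0.0056), with the list at 7.24 to 7.62 and 6.82 to 7.30. Limma called 0 of 3 measured erythroid genes (Alas2 0.40, Slc4a1 -0.33) and 0 of 5 endothelial genes (Cdh5 0.35, Cldn5 -0.33), where Aqp1 is also expressed. At an unadjusted p under 0.05 there were 1 and 3, beside 7248 of all 19938 genes. Erythroid means were 7.03 to 7.09 in GBS and 7.06 to 7.26 in Control, and endothelial means 6.47 to 6.60 and 6.51 to 6.68. Of 4 measured forebrain identity genes 3 rose: Emx2 by 1.88 (adjusted p = 2.63e-05), Pax6 by 1.48 (adjusted p = 0.000523) and Lhx2 by 0.58 (adjusted p = 0.0461). Lhx2, which holds back hem fate in the cortex, kept its call in 10 of 24 other settings, and lost it, among others, without any single GBS or Control array (adjusted p up to 0.411).

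Genes with profiles most like those of the members were sought among 18616 named genes, by the root mean square difference of centred log2 levels over the 12 arrays, which share 4 genotypes. Nearest to Clic6 were Cavin2, a caveolar coat gene, at 0.168 and Cdh1, the epithelial cadherin, at 0.169. Next came the WNT partner and target gene Lef1 (0.276), the matrix latency protein gene Ltbp1 (0.277) and the chemokine receptor gene Cxcr4 (0.293). For scale, Clic6 itself varied by 1.03 about its mean. Cdh1 read 8.67, 9.59 and 8.21 in GBS and 6.40 to 6.94 on all other arrays, with the same high point in GBS replicate 2. Nearest to Sostdc1 were Egfl6 (0.235), Lef1 (0.238), Cxcr4 (0.239), the phosphodiesterase gene Pde3a (0.240) and the protease gene Tll1 (0.251). Lef1 and Cxcr4 were thus among the 5 nearest of both. For Ttr the nearest genes, Pcdh11x, Nefl, Grin3a, Slc17a6 and Cdr1os, were at 1.47 to 1.52, beside a variation of 1.88 about its own mean. The measure is not scaled, so a gene that varies less than Ttr lies far from it even where it is high on the same arrays.

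**Figure D5:**
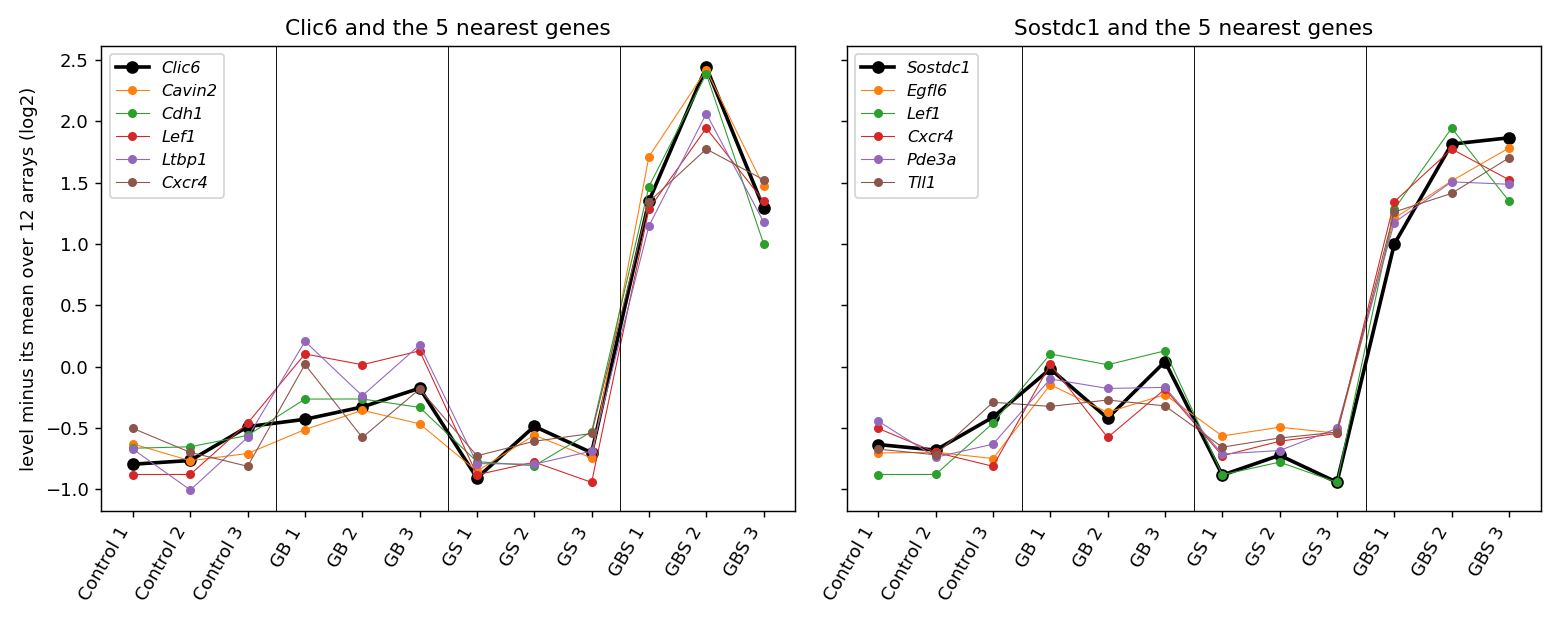
Levels on each array minus the gene's mean over the 12 arrays (log2, vertical axis) for Clic6 (left) and Sostdc1 (right), each in black with its 5 nearest genes in colour; lines only join points of a gene. Both sets are high on the 3 GBS arrays, with GBS replicate 2 the highest for Clic6 and its neighbours and GBS replicate 1 the lowest for Sostdc1.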

How the data were processed

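Total RNA from the forebrains of 12 pups was hybridised to Affymetrix arrays. The submitters' processing notes name RMA and Affymetrix Expression Console, with no version, for the deposited log2 values; the log2 scale was read from their range of 2.82 to 13.83. No background probes or detection calls were used, so the number of arrays limits the precision. Of 35556 probe sets, 21789 carried 1 gene symbol in the platform annotation, 1621 several, and 12146 were not listed there. Symbols were updated through gene identifiers to the RefSeq table of GRCm38.p6 (21698 matched). Where a gene had several probe sets, the one with the highest mean was kept, with no filter on dim genes. One limma 3.58.1 model in R 4.3.3 (lmFit, eBayes) took all 12 arrays and 19938 genes, with 1 coefficient for each genotype (8 residual and 3.29 prior degrees of freedom), with 7 contrasts and two-sided tests. The script was tested on simulated data. P-values measure the spread between these pups. No array was a copy of another (smallest median absolute difference 0.0868).

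The members and gene lists were chosen with earlier results of these data known. All members were named. From each other list up to 4 genes with the lowest adjusted p among those called in GBS against Control were named, or else the 2 with the largest difference. Other genes named, such as Id3, Rspo3, Wnt3a, Wnt2b, Wnt8b, Gdf7, Ecrg4, Kcnj13, Tcf7l2 and the collagen genes, were chosen after their values were seen. For members whose group means spanned over 1, the 5 nearest genes were named. Other settings were a filter at the 40th percentile in at least 3 arrays, other probe set rules, quantile normalization, median centring, eBayes with trend and robust, weights for arrays, a fit of only the groups compared, a replicate block, an adjusted p under 0.01 and leaving out each array. A further 3 settings were added after seeing the data: leaving out the 3 arrays that deviate together, the receptor-gene median as a covariate, and sex from Xist as a covariate.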

Additional observations from a re-analysis of the deposited data

Results flagged for a closer look

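Among the members and the other gene lists, 3 genes differed between the backgrounds in the test of (GBS minus GS) minus (GB minus Control), which called 46 of 19938 genes. Sostdc1 did so by 1.97 ± 0.30 on the log2 scale (adjusted p = 0.0278, from 0.000543 to 0.772 over the other settings). Bmp4 did so by 1.48 ± 0.23 (adjusted p = 0.0278), with differences of 1.64 on the SmoM2 background and 0.16 without it. Leaving out any 1 of 9 arrays ended this call (GBS replicate 3, GB replicates 1 and 3, and every GS and Control replicate; adjusted p up to 0.107), as did testing every probe set on its own (adjusted p = 0.0630). Emx2 did so by 1.41 ± 0.19 (adjusted p = 0.0135), with differences of 2.01 and 0.60, and its call ended without GS replicate 2 or Control replicates 1 or 3 (adjusted p = 0.0575, 0.0639 and 0.0619). With sex as a covariate none of the 3 passed in limma (adjusted p = 0.772, 0.704 and 0.674), in a fit with 0 calls over all genes, and none passed with the replicate block (adjusted p = 0.0744 for each). As Xist was high on GB and GS arrays only, the fit with sex cannot well separate sex from this gap.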

How the results depend on the processing

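Clic6 and Sostdc1 kept their calls as higher in GBS against Control and against GS under all 24 other settings each (adjusted p up to 0.00272 and 0.00175 against Control), and against GB under 23 of 24. The filter is no support for Clic6, which passed it through the 3 GBS arrays and GB replicate 3 alone. Both genes have 1 probe set, so averaging probe sets left their values unchanged. Leaving out a GB or GS array changed only the estimate of the spread in GBS against Control. Counts of called members changed as follows. GBS against Control gave 2 members, 6 with array weights, 5 with only the groups compared, 4 without the 3 arrays that deviate together, and 2 to 6 without single arrays. GS against Control gave 0, 2 with array weights (4193 genes higher and 5888 lower in all) and 1 without the 3 arrays (1341 and 470). GB against Control gave 0, and 1 with array weights (138 and 103). GBS against GS gave 2, 5 with array weights (1867 and 2064) and 3 without the 3 arrays (1156 and 1293). GBS against GB gave 2, 0 with only the groups compared (89 and 0), and 2 to 3 without single arrays. It gave 3 with probe sets averaged by gene (1337 and 507), trend and robust settings (1426 and 643) or array weights (2987 and 2821). GS against GB gave 0, and 2 with array weights (3119 and 3443). The interaction gave 1, and 0 with every probe set on its own, with median centring, with the replicate block, with sex as a covariate or at an adjusted p under 0.01. It gave 2 with trend and robust settings (42 genes higher and 1 lower in all), array weights (748 and 898) or the receptor-gene covariate (140 and 104), beside 45 and 1 in the main fit. Without single arrays it gave 0 to 1. Without the 3 arrays it gave 3, with Ttr as the 1 that was lower (110 and 253 genes in all). The weight estimate stopped before it converged, and the cause of these changes was not tested.

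Replicate numbers did not pair the arrays: 7 of 18 same-numbered pairs had correlated deviations over 0.1, and 1 of 12 arrays correlated best with its own number. The replicate block left 2 members called in each comparison of GBS and 0 in the interaction, and lowered the higher and lower genes in GBS against Control from 1603 and 716 to 969 and 190. Those counts over all genes were 3808 and 5817 with array weights, 3714 and 4909 with only the groups compared, 3476 and 4132 without GB replicate 2, 3539 and 3900 without the 3 arrays, 646 and 77 without GBS replicate 2, and 781 and 120, 899 and 159, and 653 and 125 without Control replicates 1, 2 and 3. They were 806 and 1034 with the receptor-gene covariate, which moved the median of all genes from -0.14 to 0.04, and 597 and 61 at an adjusted p under 0.01.

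Signs turned for 13 of the 58 gene results followed through the settings, none past the threshold on either side. The 58 cover every contrast for Ttr, Clic6 and Sostdc1, and the comparisons of GBS with each other group for the remaining members. For the genes named by rule from the other lists they cover GBS against Control only. Signs of other results were not followed. Clic6 in GS against Control became 0.0385 with quantile normalization, 0.0276 with median centring, 0.196 with array weights, 0.0827 without the 3 arrays and -0.121 to 0.0891 without single arrays. Ttr in GB against Control became -0.0606 with array weights, and ran from -1.20 without GB replicate 3 to 1.5 without single arrays. Otx2 against Control became 0.0178 without the 3 arrays and -0.476 to 0.0331 without single arrays (0.0178 without Control replicate 3), -0.437 to 0.0717 against GS and -0.507 to 0.00164 against GB. Aqp1 against GB became 0.0511 with array weights, 0.00395 without the 3 arrays, 0.103 with the receptor-gene covariate, 0.0154 with sex and -0.211 to 0.00395 without single arrays, and against GS 0.0289 with the receptor-gene covariate and 0.0486 with sex. Folr1 became 0.0207 against Control, 0.104 against GS and 0.125 against GB with the receptor-gene covariate. Against GS it became 0.129 with sex, 1.52e-05 without the 3 arrays and -0.215 to 1.52e-05 without single arrays. Msx2 against GS became 0.0626 with the receptor-gene covariate and 0.0247 with sex. With the receptor-gene covariate Aanat became 0.0384 and Slc4a1 0.0796 against Control.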
